A study of Drosophila melanogaster with 15 samples.

Results

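RNA from mushroom body nuclei of male flies with RNAi against Bap60 was compared between mature and newly eclosed adults. The 7 libraries titled as Bap60 knockdown were chosen from the 15 of the series, 5 from mature and 2 from juvenile males, and were scaled and fitted on their own. Mature males were 1 to 5 days past eclosion and juvenile males 0 to 3 h past eclosion. All 7 libraries came from the genotype UAS-unc84::GFP/+; R14H06-Gal4/UAS-Bap6032503, in which 1 driver line expresses both the hairpin against Bap60 and the GFP-tagged nuclear envelope protein UNC84. The other 8 libraries, 5 mature and 3 juvenile, carried UAS-unc84::GFP/+;R14H06-Gal4/UAS-mCherryRNAi and serve below as the control course of maturation. Nuclei were pulled down by the tag (the INTACT method), and flies were kept at 25°C and 70% humidity. The labels do not say whether libraries of a group came from separate flies, and what the p-values compare with is the spread among these libraries, which may be technical.

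The mushroom body is a paired structure of the insect brain that is needed for olfactory learning, and its intrinsic neurons are called Kenyon cells. Bap60 is a core subunit of SWI/SNF, a chromatin remodelling complex that moves nucleosomes and opens regulatory DNA. In the days after eclosion a fly hardens and pigments its cuticle, replaces larval fat with adult fat, clears remnants of metamorphosis and brings its memory circuits into use.

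Total gene counts were 17447070 to 37563455 in the mature libraries, and 45547974 and 53143845 in the juvenile libraries. The first principal component held 65.9% of the variance and separated the ages, and the next held 11.8% and set the juvenile libraries apart from each other. The biological coefficient of variation was 0.2282 among mature libraries and 0.4496 between the juvenile pair, so the juvenile levels rest on fewer and less alike libraries. Levels are CPM, gene counts divided by the library total after TMM scaling, and are given for replicates 1 to 5 of the mature libraries and 1 and 2 of the juvenile libraries. A count for the UNC84 tag, 4495 to 9065 CPM in the mature knockdown libraries, was listed for mature libraries only. Age and that difference between the deposited files cannot be told apart, and the tag stayed out of all values. In bulk RNA, fewer cells of a type and less RNA per cell cannot be told apart.

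Bap60 itself, at X 13157445 to 13159508 on the minus strand (BDGP6.54), had 13.9, 10.6, 7.15, 12 and 11.4 CPM in mature knockdown libraries and 5.03 and 7.72 CPM in juvenile ones. The ages overlapped, since mature library 3 lay below juvenile library 2. The mean was 11 ± 2.49 CPM in mature libraries and 6.37 ± 1.9 CPM in juvenile libraries (SD, n = 5 and 2), a log2 fold change of 0.78 (SE 0.28, edgeR adjusted p = 0.0449). The call was lost when juvenile library 1 was left out, with a log2 fold change of 0.52, and also without mature library 1, 2, 4 or 5, with 0.69 to 0.80. An exact two-sided permutation test over the 7 libraries gave p = 0.19, where the smallest p that 21 splits allow is 0.0952. In mCherry libraries Bap60 had a maturation log2 fold change of 0.87 (adjusted p = 0.0329), and the difference between the genotypes was -0.05 (SE 0.40, adjusted p = 0.979). Of the 12 SWI/SNF subunits, 7 were called higher in mature knockdown libraries and 5 were not called, with a median log2 fold change of 0.61. That is 58.3% called, against 42.0% of all genes tested, of which 19.7% were called higher. Of these subunits, 5 were called higher by DESeq2, RLE or upper-quartile scaling or limma-voom with sample weights. Under a stricter filter 4 were called, and 1 with replicate number as a block. Without juvenile library 1, 4 of them were called. The other called subunits included Bap111, a DNA-binding subunit, and brm, the ATPase. Bap111 had 43.8, 31.7, 25.4, 28.1 and 30.5 CPM in mature libraries and 10.4 and 14 CPM in juvenile ones, and brm had a log2 fold change of 0.83 (SE 0.15, adjusted p = 0.00154), although it overlaps 4 genes on the other strand.

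Across the transcriptome, 4428 of 10543 genes tested passed an adjusted p of 0.05 between mature and juvenile knockdown libraries, which is 42.0%. Of these, 2080 genes (19.7%) were higher in mature libraries and 2348 (22.3%) were lower. The median log2 fold change was 0.90 among genes called higher and -1.70 among those called lower, against -0.01 over all genes tested. At least a 4-fold difference was seen for 177 genes called higher and 1057 called lower. A gene near 0 at either age passes the count filter through the other age alone, so its direction is set beforehand. Among genes tested, 106 had at least 3 counts in both juvenile libraries and 0 in all mature ones. The reverse, at least 3 counts in each mature library and 0 in both juvenile ones, held for 29. The ages differ in the number and depth of their libraries, so 106 and 29 cannot be set against each other. The groups did not overlap for 4351 of the called genes, and among all genes tested the share with all mature libraries above both juvenile ones was 26.3%, and below them 28.8%. Counts for gene lists below are read against these shares. Most single genes named below were taken from the called members of a list. That their ages do not overlap follows largely from that choice and adds no support.

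**Figure D1:**
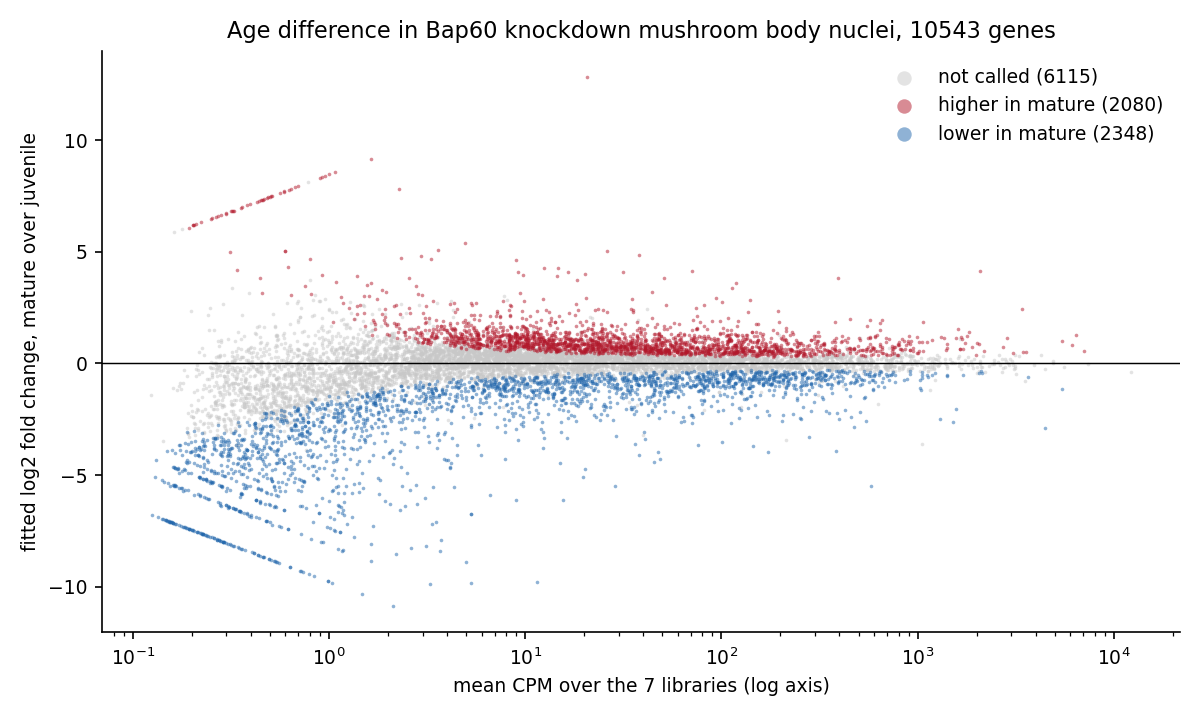
Log2 fold change, mature over juvenile knockdown, against the mean level of each of the 10543 genes tested, with genes called at an adjusted p under 0.05 in colour. Diagonal stripes are genes at 0 counts in one age, whose fitted values depend on the prior count. Most genes past a 4-fold change lie below 0 and at low levels.

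**Figure D2:**
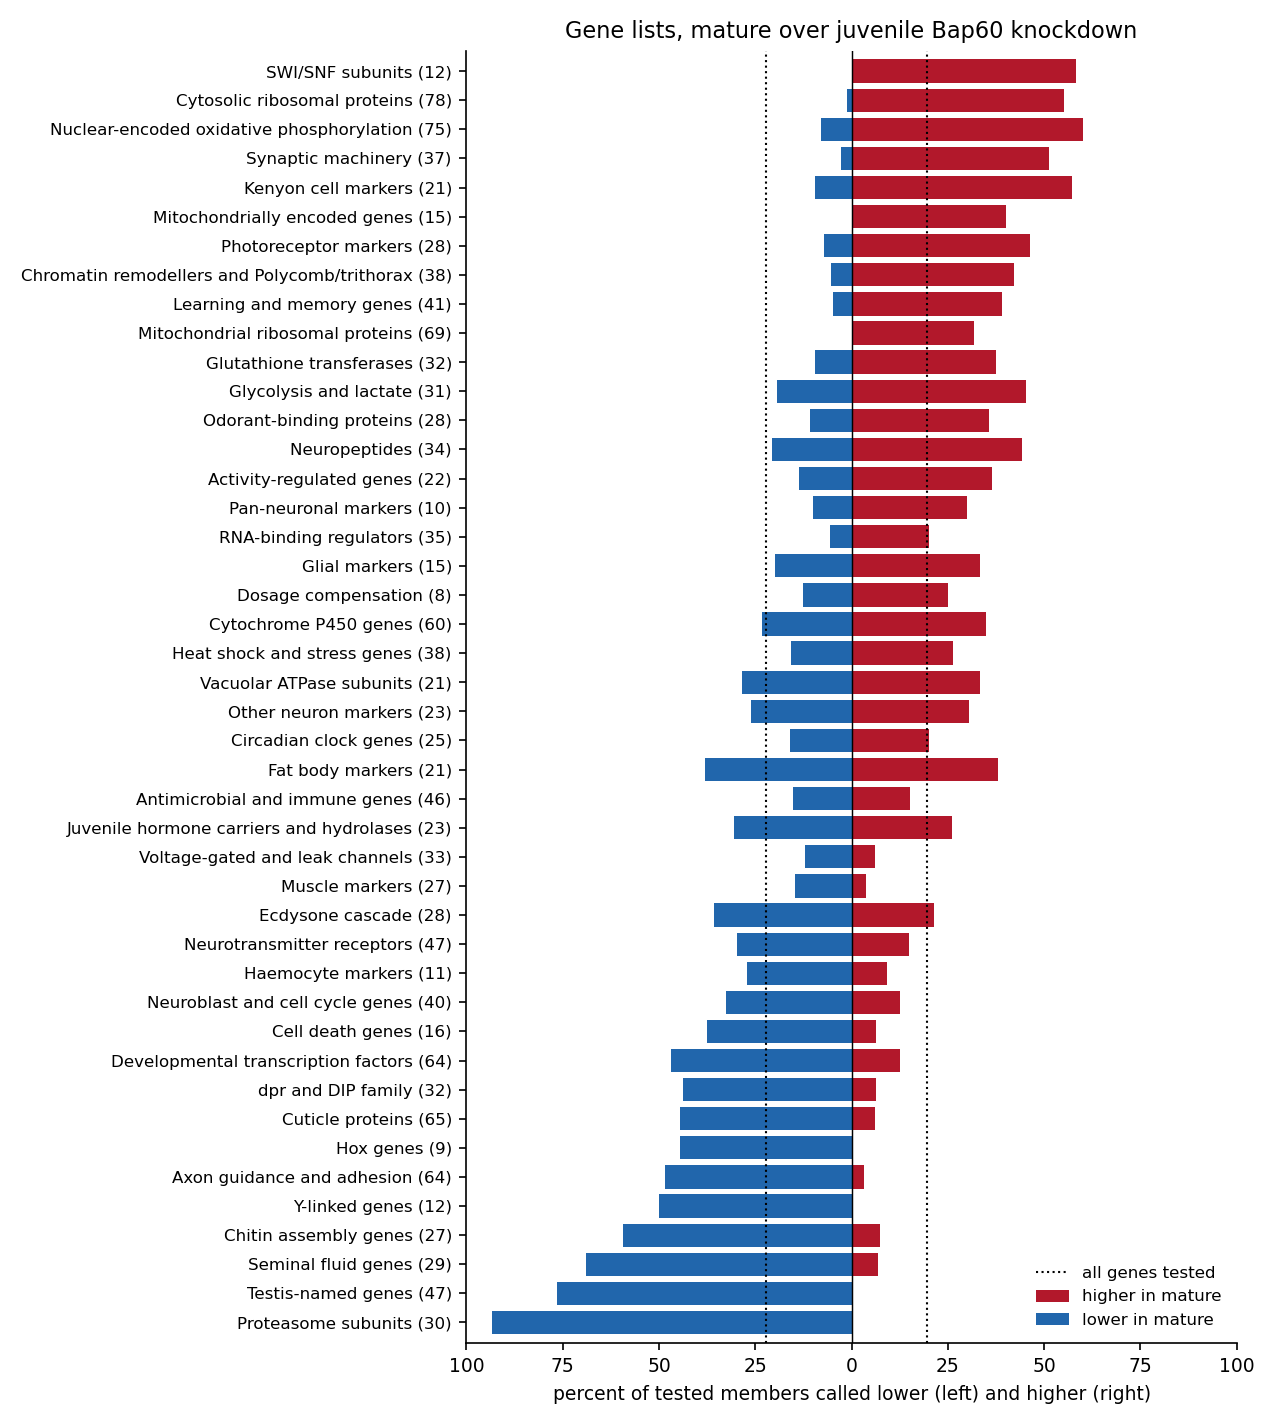
Number of members called higher and lower in mature knockdown libraries for each gene list, as a share of the members tested (in brackets), with dotted lines at the shares over all genes, 19.7% higher and 22.3% lower. Synaptic, ribosomal and respiratory lists lean higher, and proteasome, guidance, cuticle and testis-named lists lean lower.

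Kenyon cell markers were abundant at both ages. Their summed level was 22763 to 31475 CPM in mature libraries, and 18429 and 18102 CPM in juvenile ones. Of 21 markers tested, 12 rose and 2 fell, with a median log2 fold change of 0.58. The count called higher was 8 when either juvenile library was left out, 7 by limma-voom with sample weights or one weight per age, and 6 with the replicate block. The markers called lower were Rx, a homeobox factor, with a log2 fold change of -1.01 (adjusted p = 0.00342), and Ca-alpha1T, a T-type calcium channel subunit, with -0.53. The call of Ca-alpha1T was lost without juvenile library 1, and the log2 fold change was then -0.44.

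Mef2, a transcription factor of all Kenyon cells, had 1112, 869, 1111, 923 and 925 CPM in mature libraries and 882 and 883 CPM in juvenile ones, and was not called (log2 fold change 0.16, SE 0.14, adjusted p = 0.359). The retinal determination factor dac had 732, 475, 704, 522 and 555 CPM in mature libraries and 257 and 321 CPM in juvenile ones (log2 fold change 1.05, adjusted p = 0.00187). The Pax6 genes ey and toy rose by 0.58 and 0.59 on the log2 scale. The call of ey was lost without juvenile library 1 or 2 or mature library 3 (0.46 to 0.68), and that of toy without juvenile library 2 (0.45). The DnaJ-domain gene jdp had 1539, 1088, 1798, 977 and 1320 CPM in mature libraries and 377 and 365 CPM in juvenile ones (log2 fold change 1.86, SE 0.23, adjusted p = 0.000241). The neuropeptide gene sNPF, whose product Kenyon cells release, had 1134, 819, 1146, 831 and 971 CPM in mature libraries and 463 and 458 CPM in juvenile ones (log2 fold change 1.09, adjusted p = 0.000738). For jdp, sNPF and dac every mature library lay above both juvenile ones. Portabella (prt), a vesicular transporter of the mushroom body, had 194, 113, 127, 115 and 136 CPM in mature libraries and 41.3 and 54.4 CPM in juvenile ones, with mature library 1 above the rest of its group.

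Genes of transmitter release were called higher far more often than lower. Of 37 synaptic machinery genes tested, 19 were called higher in mature knockdown libraries and 1 lower, with a median log2 fold change of 0.39. Without juvenile library 2 the count called higher was 11. Rop, the fly Munc18 protein that guides SNARE assembly, had 210, 171, 221, 163 and 226 CPM in mature libraries and 78.8 and 77.7 CPM in juvenile ones. The disassembly ATPase NSF, encoded by comt, had 186, 160, 203, 152 and 212 CPM in mature libraries and 92.5 and 62.6 CPM in juvenile ones. Syt4, a synaptotagmin of postsynaptic and peptidergic release, had 572, 483, 622, 471 and 519 CPM in mature libraries and 346 and 316 CPM in juvenile ones. No mature library came down to a juvenile level for these 3 genes, and their log2 fold changes were 1.34 for Rop (SE 0.16, adjusted p = 0.000211), 1.23 for comt (adjusted p = 0.000783) and 0.69 for Syt4 (adjusted p = 0.00331). The active zone scaffold gene brp was not called, with a log2 fold change of 0.34 (adjusted p = 0.0919), nor was the complexin gene cpx, with 0.40 (adjusted p = 0.0933), and cpx overlaps another gene on each strand. The single member called lower was Cirl, a latrophilin adhesion receptor gene, at -0.51, and its call was lost without juvenile library 2 (-0.50). The axonal microtubule protein gene futsch had 3657, 2869, 3844, 2764 and 3732 CPM in mature libraries and 1537 and 1551 CPM in juvenile ones (log2 fold change 1.13, adjusted p = 0.000583).

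Few ion channel genes were called. Of 33 voltage-gated and leak channel genes tested, 2 were called higher and 4 lower, a share of 18.2% against 42.0% of all genes. Without juvenile library 1 the counts were 1 and 2. Those called higher were tipE, an accessory sodium channel subunit, at 1.17, and the leak channel gene Task7 at 0.93, whose call was lost without juvenile library 1 (0.50). Those called lower were Ca-alpha1T, the inward rectifier gene Irk1 (-1.06), the chloride channel gene ClC-a (-1.02) and KCNQ (-0.33). The calls of Ca-alpha1T and KCNQ were lost without juvenile library 1, and that of KCNQ also without juvenile library 2 or mature library 1, 2, 4 or 5 (-0.36 to -0.28).

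Learning genes include the cAMP pathway, which in Kenyon cells detects an odour that coincides with reinforcement. Of 41 learning and memory genes tested, 16 rose and 2 fell, Octbeta2R and the zinc finger gene shn (-0.88, adjusted p = 0.000799). Without juvenile library 2 the counts were 9 and 4, and 4 were called lower without mature library 3. Pka-C1, the catalytic subunit of protein kinase A, had 2646, 2035, 2695, 1947 and 2254 CPM in mature libraries and 1318 and 1120 CPM in juvenile ones (log2 fold change 0.93, SE 0.16, adjusted p = 0.00163). The regulatory subunit Pka-R2 rose by 1.24 on the log2 scale (adjusted p = 0.00109). The 14-3-3 protein gene 14-3-3zeta, known as leonardo in memory mutants, had 2336, 1876, 2859, 1823 and 2241 CPM in mature libraries and 903 and 777 CPM in juvenile ones (log2 fold change 1.41, adjusted p = 0.000367). Mature and juvenile libraries did not overlap for any of these 3 genes.

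**Figure D3:**
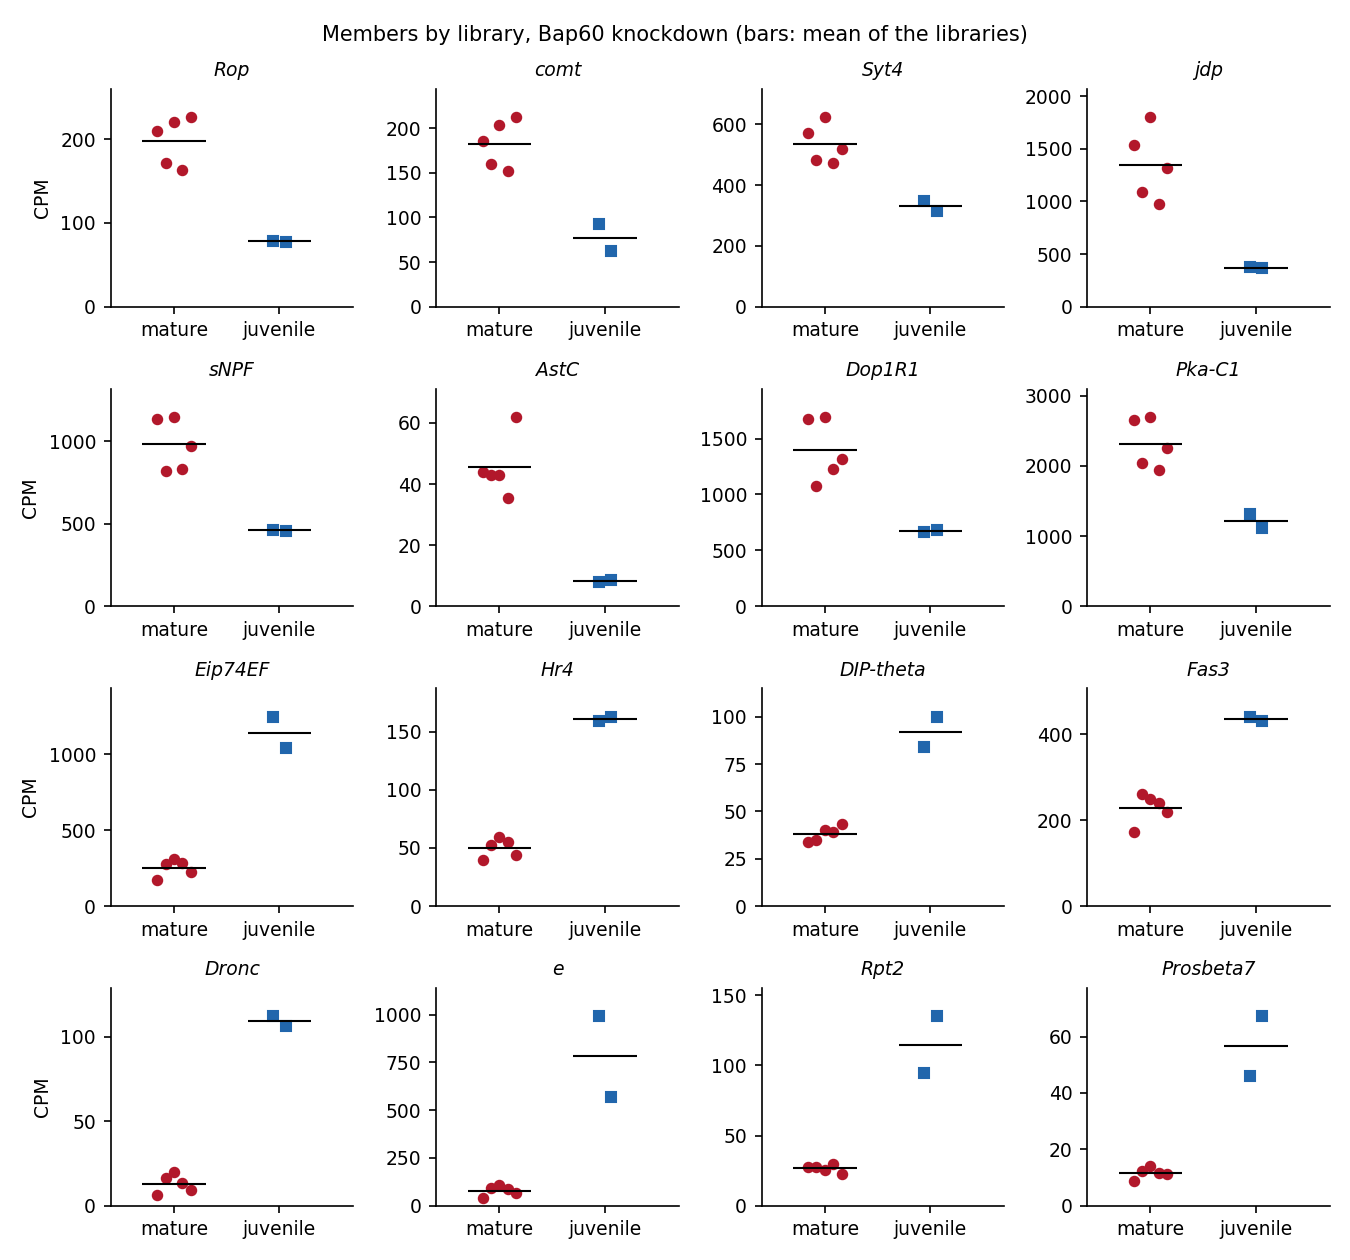
Level in CPM of 16 genes in each mature (left) and juvenile (right) knockdown library, with bars at the group means. Rop, comt, Syt4, jdp, sNPF, AstC, Dop1R1 and Pka-C1 lie higher in all 5 mature libraries, and Eip74EF, Hr4, DIP-theta, Fas3, Dronc, e, Rpt2 and Prosbeta7 lie lower in all 5.

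Transmitter receptor genes moved in both directions. Of 47 tested, 7 rose and 14 fell, with a median log2 fold change of -0.10. Without juvenile library 1 the count called higher was 4, and without juvenile library 2 it was 3. Dopamine carries the reinforcement signal to Kenyon cells, and all 4 dopamine receptor genes of the list were called higher. The dopamine, serotonin and histamine receptors named here, apart from Dop1R1 and 5-HT2B, were chosen after their values were seen. Dop1R1, required for aversive and appetitive learning, had 1670, 1075, 1692, 1231 and 1314 CPM in mature libraries and 663 and 686 CPM in juvenile ones (log2 fold change 1.05, adjusted p = 0.00167). Dop2R rose by 0.87 (adjusted p = 0.00268), Dop1R2 by 0.68 and DopEcR by 0.49 on the log2 scale. The calls of Dop1R2 and DopEcR were lost without juvenile library 1 (0.53 and 0.55), and that of DopEcR also without juvenile library 2 (0.39).

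Several receptor genes for other transmitters fell. The serotonin receptor 5-HT2B had 76.5, 76.2, 99.8, 87.5 and 98.4 CPM in mature libraries and 160 and 159 CPM in juvenile ones (log2 fold change -0.86, adjusted p = 0.000973). The related 5-HT2A fell by 0.76 and 5-HT7 by 0.59 on the log2 scale. Octbeta2R, an octopamine receptor, had 275, 482, 415, 420 and 405 CPM in mature libraries and 789 and 773 CPM in juvenile ones (log2 fold change -0.97, adjusted p = 0.00166), and the octopamine-tyramine receptor gene Oct-TyrR fell by 0.69. The histamine-gated chloride channels ort and HisCl1 fell by 1.18 and 1.11. GABA-B-R3, a metabotropic GABA receptor subunit, had 60.5, 54.3, 66.9, 63.6 and 73.1 CPM in mature libraries and 116 and 119 CPM in juvenile ones (log2 fold change -0.88, adjusted p = 0.000704). Each juvenile library lay above every mature one for these receptors.

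Neuropeptide genes moved in both directions, with 15 of 34 called higher and 7 lower and a median log2 fold change of 0.49. Without mature library 5 the counts were 9 and 4, and 4 were called lower without mature library 2 or 4. AstC, which encodes the inhibitory peptide allatostatin C, had 44, 43, 42.9, 35.4 and 61.9 CPM in mature libraries and 7.86 and 8.76 CPM in juvenile ones (log2 fold change 2.45, SE 0.23, adjusted p = 6.12e-05). Myosuppressin (Ms) had 23.3, 24, 27.1, 27.1 and 37.2 CPM in mature libraries and 7.5 and 8.19 CPM in juvenile ones. CCHa1, a brain and gut peptide gene, had 4.55, 8.38, 7.09, 8.25 and 8.45 CPM in mature libraries and 40.9 and 38.5 CPM in juvenile ones (log2 fold change -2.43, adjusted p = 4.18e-05). The ages were separate for all 3, with AstC and Ms high and CCHa1 low in mature males.

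Ribosomal and respiratory genes were called higher more often than lower. Of 78 cytosolic ribosomal protein genes tested, 43 rose, 1 fell and 34 were not called, and the median log2 fold change was 0.58. The count called higher was 27 without juvenile library 1 and 25 with limma-voom and one weight per age. RpS18 had 128, 130, 101, 164 and 132 CPM in mature libraries and 49.3 and 44 CPM in juvenile ones (log2 fold change 1.49, adjusted p = 0.000221). The member that fell was RpS5b, a low-level copy chosen after its value was seen, whose call was lost without juvenile library 2 or mature library 4 or 5 (-3.28 to -3.10). Of 69 mitochondrial ribosomal protein genes, a list chosen after values were seen, 22 rose and 47 were not called. Of 75 nuclear-encoded oxidative phosphorylation genes, 45 rose, 6 fell and 24 were not called, with a median of 0.82. The count called higher was 21 without juvenile library 2 and 23 with one weight per age. The complex I subunit gene ND-75 had 155, 226, 134, 165 and 190 CPM in mature libraries and 58.5 and 72.1 CPM in juvenile ones (log2 fold change 1.41, adjusted p = 0.000523). The 6 that fell, ATPsynGL, COX6CL, COX4L, ATPsynbetaL, COX6AL2 and ND-24L, are low-level copies of respiratory genes, named after their values were seen, and the call of ATPsynbetaL was lost without juvenile library 2 (-3.64).

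Glycolysis genes followed, with 14 of 31 called higher and 6 lower. Without juvenile library 1 the count called higher was 9, as it was without juvenile library 2. Enolase (Eno) had 332, 468, 343, 361 and 395 CPM in mature libraries and 130 and 151 CPM in juvenile ones (log2 fold change 1.43, adjusted p = 0.000142). The members that fell included Mct1, a monocarboxylate transporter, at -1.19 (adjusted p = 0.000692). Transcripts of the mitochondrial genome had 6 of 15 members called higher by edgeR, and 2 without juvenile library 1 or without juvenile library 2. With one weight per age limma-voom called 0 of them, DESeq2 called 7, and the replicate block called 3 higher and 2 lower. With one weight per age 3 were higher at an unadjusted p under 0.05, and the share of all genes at that p was not counted. Their summed level was 3738 CPM in mature library 1 and 12394 to 15779 CPM in the other mature libraries, and 7102 and 10163 CPM in juvenile ones, so mature library 1 lay below both juvenile libraries. The transcript mt:ND2 had 17.1, 56, 48.2, 53.8 and 57.7 CPM in mature libraries and 5.17 and 7.33 CPM in juvenile ones, with mature library 1 apart from the others of its age.

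Stress and chromatin genes contained opposing members. Of 38 heat shock and stress genes, 10 rose and 6 fell. Xbp1, a factor of the unfolded protein response, had 329, 311, 265, 284 and 287 CPM in mature libraries and 149 and 164 CPM in juvenile ones (log2 fold change 0.92, adjusted p = 0.000465). Thor, the translation inhibitor 4E-BP, had 42, 113, 48.4, 65.3 and 59.9 CPM in mature libraries and 247 and 213 CPM in juvenile ones (log2 fold change -1.81, adjusted p = 0.00267). Of 38 genes of other chromatin remodellers and the Polycomb and trithorax groups, 16 rose and 2 fell, and 10 rose when either juvenile library was left out. The remodelling ATPase gene Iswi rose by 0.98 (adjusted p = 0.00113) and the histone demethylase gene Kdm5 by 0.70 (adjusted p = 0.00155) on the log2 scale. The members called lower were jing, at -0.58, and Psc, a subunit of Polycomb repressive complex 1. Psc had 58.2, 52.5, 53.9, 48.1 and 52.5 CPM in mature libraries and 120 and 95.3 CPM in juvenile ones (log2 fold change -1.02, adjusted p = 0.000325).

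Fat body markers went both ways, with 8 of 21 called in each direction, a median log2 fold change of -0.23 and 5 called lower without juvenile library 1. The lipid carrier precursor apolpp, made by fat body in Drosophila, had 1688, 3132, 2828, 3091 and 3477 CPM in mature libraries and 179 and 144 CPM in juvenile ones (log2 fold change 4.14, SE 0.30, adjusted p = 1.27e-05). The iron carrier Tsf1 had 275, 249, 190, 287 and 259 CPM in mature libraries and 43.3 and 54.7 CPM in juvenile ones. The desaturase gene Desat1 had 523, 593, 516, 622 and 632 CPM in mature libraries and 140 and 151 CPM in juvenile ones (log2 fold change 1.99, adjusted p = 9.62e-06). These 3 genes separated the ages in every library. Lsd-1, a perilipin of lipid droplets, had 20.4, 27.6, 35.9, 21 and 22.2 CPM in mature libraries and 69.7 and 91.2 CPM in juvenile ones (log2 fold change -1.66, adjusted p = 0.000294). The triglyceride lipase gene bmm had 60.1, 113, 82.4, 106 and 77.7 CPM in mature libraries and 200 and 240 CPM in juvenile ones (log2 fold change -1.32, adjusted p = 0.000783). Summed fat body markers came to 3155 to 5106 CPM in mature libraries, and 1164 and 1272 CPM in juvenile ones. Most of the sum in each mature library was apolpp, so the sum does not stand for the list. Whether fat body RNA had a part in these results was not tested.

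Photoreceptor markers rose too, with 13 of 28 called higher and 2 lower, and 7 called higher without juvenile library 2. The opsin gene ninaE had 3451, 5156, 3077, 5368 and 5023 CPM in mature libraries and 946 and 691 CPM in juvenile ones (log2 fold change 2.43, adjusted p = 0.000124). The light-activated channel gene trp had 553, 705, 543, 676 and 907 CPM in mature libraries and 304 and 295 CPM in juvenile ones (log2 fold change 1.18, adjusted p = 0.00121). The members called lower were rdgA, a diacylglycerol kinase gene, at -1.07 (adjusted p = 0.00068) and inaE at -0.43, whose call was lost without juvenile library 1 (-0.34). Summed photoreceptor markers came to 12198 to 16782 CPM in mature libraries, and 10052 and 8710 CPM in juvenile ones. Their part in the result was not tested. Of 27 muscle markers 5 were called, Msp300 higher and Tm1, TpnC47D, TpnC73F and tn lower, and their summed levels overlapped, 11938 to 38343 CPM in mature libraries and 28616 and 25984 CPM in juvenile ones. The calls of TpnC47D and tn were lost when either juvenile library was left out, at -3.36 and -2.37 for TpnC47D and -2.58 and -2.62 for tn, that of TpnC47D also without mature library 4 (-2.86), and those of Tm1 (-0.63) and Msp300 (0.47) without juvenile library 1. Without mature library 2, which held the highest muscle sum, 12 muscle markers were called lower.

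Cytochrome P450 and glutathione transferase genes, listed after values were seen, were called higher more often than lower. Of 60 cytochrome P450 genes tested, 21 rose and 14 fell, and 9 fell without mature library 5. Cyp6g1, known for insecticide resistance, had 31.4, 30.7, 29.1, 32.3 and 29.7 CPM in mature libraries and 5.76 and 5.67 CPM in juvenile ones (log2 fold change 2.42, SE 0.17, adjusted p = 7.95e-06). Cyp4d21, named sex-specific enzyme 1 in Drosophila, had 22.6, 38.8, 26, 46.9 and 46.3 CPM in mature libraries and 1.26 and 0.949 CPM in juvenile ones (log2 fold change 5.03, adjusted p = 2.11e-05). Of 32 glutathione transferase genes, 12 rose and 3 fell, GstD4, GstS1 and GstE14, and the call of GstD4 was lost without juvenile library 1 (-3.87). Among 23 carriers and hydrolases of juvenile hormone, also listed after values were seen, 6 rose and 7 fell with a median log2 fold change of -0.25, and the count called lower was 3 without juvenile library 2 and 4 without mature library 5. The hydrolase gene Jheh1 had 16.1, 15.7, 15.6, 18.3 and 15.8 CPM in mature libraries and 1.33 and 3.1 CPM in juvenile ones. CG7299, a gene with no assigned role here, had 22, 30.6, 18.8, 37.3 and 36.2 CPM in mature libraries and 0 counts in both juvenile ones. Against a floor of 3 counts over the juvenile group it was at least 953-fold higher in mature libraries.

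Odorant-binding protein genes rose for 10 of 28 members and fell for 3, Obp22a, Obp83g and Obp56c, and the count called lower was 1 without mature library 3 and none of the 3 kept its call without mature library 5. Obp22a also lost its call without juvenile library 2 (-1.04), Obp83g without juvenile library 1 (-1.07), and Obp56c without juvenile library 1 or mature library 1 or 2 (-3.87 to -3.57). Obp99c had 127, 153, 106, 122 and 121 CPM in mature libraries and 51.7 and 32 CPM in juvenile ones. Immune genes divided evenly, with 7 of 46 called in each direction. Bbd, of this list, had 75.3, 120, 76, 116 and 96.4 CPM in mature libraries and 24.2 and 10.7 CPM in juvenile ones. Its log2 fold change was 2.47 (edgeR adjusted p = 0.000616). The NF-kappaB inhibitor gene cact had 190, 241, 236, 220 and 222 CPM in mature libraries and 475 and 443 CPM in juvenile ones (log2 fold change -1.05, adjusted p = 0.000144). The ages were separate for Obp99c, Bbd and cact.

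Genes of the steroid hormone ecdysone, which times metamorphosis, showed 10 of 28 members called lower and 6 higher in mature knockdown libraries, with a median log2 fold change of -0.30. Eip74EF, an early ecdysone-induced ETS factor, had 171, 274, 311, 286 and 226 CPM in mature libraries and 1248 and 1039 CPM in juvenile ones (log2 fold change -2.17, SE 0.19, adjusted p = 3.9e-05). Hr4, an early-late nuclear receptor, had 39.3, 52.6, 59.2, 54.7 and 44.3 CPM in mature libraries and 159 and 163 CPM in juvenile ones (log2 fold change -1.68, adjusted p = 5.03e-05). The insulin-binding protein gene ImpL2 had 24.9, 55.3, 71.9, 49.1 and 44 CPM in mature libraries and 249 and 176 CPM in juvenile ones. Both juvenile libraries lay above every mature one for all 3. Hr3, a later receptor of the cascade, went the other way with 88.3, 80.4, 109, 71.6 and 85.4 CPM in mature libraries and 44.4 and 27 CPM in juvenile ones (log2 fold change 1.29, adjusted p = 0.00137). Hr4 overlaps 2 genes on the other strand, and Hr3 overlaps 3 genes on its own strand.

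Developmental transcription factors fell more often than they rose, at 30 and 8 of 64 tested, with a median log2 fold change of -0.51. Their summed level was nonetheless higher in mature libraries, at 21258 to 27015 CPM, against 19927 and 17457 CPM in juvenile ones. Without juvenile library 2 the count called higher was 5. The engrailed-family gene inv had 22.9, 32.6, 35.5, 37.8 and 37.3 CPM in mature libraries and 88.1 and 103 CPM in juvenile ones (log2 fold change -1.52, adjusted p = 0.000184). The POU factor nub had 0.767, 1.24, 1.82, 1.77 and 0.884 CPM in mature libraries and 24.2 and 9.45 CPM in juvenile ones (log2 fold change -3.67, adjusted p = 9.96e-05). Hox genes, which set segment identity, had 4 of 9 members called lower. Ubx had 4, 3.76, 3.11, 8.03 and 4.08 CPM in mature libraries and 35.2 and 56.6 CPM in juvenile ones. Abd-B had 0.822, 0.289, 0.605, 1.12 and 0.147 CPM in mature libraries and 11.2 and 15 CPM in juvenile ones. The 3 genes of the bithorax complex, which act in thorax and abdomen, and bcd, a low-level gene of the same list, were the members called, whereas lab, pb, Dfd, Scr and Antp did not pass the test. The log2 fold changes were -3.32 for Ubx, -4.45 for Abd-B and -6.75 for abd-A, with adjusted p between 6.12e-05 for Ubx and 0.000147 for abd-A.

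Among wiring genes most calls were downward. Of 64 axon guidance and adhesion genes tested, 31 fell and 2 rose, with a median log2 fold change of -0.35. Those called higher were trn, a leucine-rich repeat protein gene, at 0.85 and PlexA, a semaphorin receptor gene, at 0.54, and the call of PlexA was lost without juvenile library 1 (0.46). The nephrin-like adhesion gene sns had 232, 225, 266, 255 and 265 CPM in mature libraries and 483 and 483 CPM in juvenile ones (log2 fold change -0.96, adjusted p = 0.000179). Fas3, a homophilic adhesion molecule of axons, had 172, 261, 249, 239 and 220 CPM in mature libraries and 441 and 432 CPM in juvenile ones (log2 fold change -0.94, adjusted p = 0.000933). In the dpr and DIP families, whose members pair across synaptic partners, 14 of 32 fell and 2 rose, dpr14 and dpr9, and the call of dpr9 was lost without juvenile library 1 or 2 or mature library 1, 3, 4 or 5 (0.35 to 0.45). DIP-theta had 33.6, 35.1, 40, 39.3 and 43.2 CPM in mature libraries and 83.9 and 100 CPM in juvenile ones (log2 fold change -1.27, adjusted p = 0.000134). Both juvenile libraries lay above all mature ones for sns, Fas3 and DIP-theta. Fas3 and DIP-theta overlap other genes on both strands, and sns on its own strand.

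Cell death and cell cycle genes were called lower more often than higher. Of 16 cell death genes tested, 6 fell and 1 rose, and without juvenile library 2 the counts were 3 and 2. The initiator caspase gene Dronc had 6.35, 16.6, 19.7, 13.4 and 9.18 CPM in mature libraries and 112 and 106 CPM in juvenile ones (log2 fold change -3.06, SE 0.33, adjusted p = 0.000241). The effector caspase gene Drice had 11.9, 13.7, 15, 15.6 and 10.8 CPM in mature libraries and 20.2 and 24.5 CPM in juvenile ones (log2 fold change -0.74, adjusted p = 0.0103). Both caspase genes were separate between the ages. The member called higher, rpr, an activator of apoptosis, lost its call without mature library 2, 4 or 5, at log2 fold changes of 2.99 to 3.28. Of 40 neuroblast and cell cycle genes, 13 fell and 5 rose, pros, stau, geminin, His3.3A and His2Av, and that of His3.3A was lost without juvenile library 1 or 2 or mature library 4 or 5 (0.58 to 0.63). The S phase cyclin gene CycE had 6.79, 8.96, 13, 8.33 and 8.2 CPM in mature libraries and 21.3 and 22 CPM in juvenile ones (log2 fold change -1.25, adjusted p = 0.00184). The summed level of the neuroblast and cell cycle list ran the other way, at 6931 to 9381 CPM in mature libraries, and 5479 and 4515 CPM in juvenile ones.

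Cuticle proteins and chitin form the exoskeleton, which hardens after eclosion. Of 65 cuticle protein genes tested, 29 fell and 4 rose, with a median log2 fold change of -1.43, and 2 rose without juvenile library 2. Those that rose were Cpr72Ec, Cpr62Bb, Cpr65Au and Lcp65Ag2. The calls of Cpr62Bb and Lcp65Ag2 were lost when either juvenile library was left out, that of Cpr62Bb also without mature library 2, 4 or 5 (0.89 to 1.05), and that of Cpr65Au without juvenile library 2 (1.59). Cpr49Ac had 0.493, 3.34, 3.54, 1.99 and 0.786 CPM in mature libraries and 122 and 68.3 CPM in juvenile ones (log2 fold change -5.49, adjusted p = 0.0009). Cpr72Ec ran the other way, with 204, 288, 211, 249 and 289 CPM in mature libraries and 72.1 and 65 CPM in juvenile ones. Chitin assembly genes, listed after values were seen, fell for 16 of 27 members and rose for 2, Idgf2 and t, with 10 called lower without juvenile library 1 and 1 called higher without juvenile library 2. The chitin synthase gene kkv had 16.9, 46.5, 60.7, 43.1 and 24.4 CPM in mature libraries and 172 and 191 CPM in juvenile ones (log2 fold change -2.24, adjusted p = 0.00511). The pigment gene ebony (e) had 40.5, 92.7, 110, 88.6 and 64.6 CPM in mature libraries and 991 and 571 CPM in juvenile ones (log2 fold change -3.30, adjusted p = 0.000449). Summed cuticle genes came to 1002 to 2122 CPM in mature libraries, and 6542 and 4278 CPM in juvenile ones. Whether RNA of cuticle-forming cells had a part in the changes above was not tested.

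Male reproductive genes were called lower in mature knockdown libraries more often than higher. The lists of testis-named, seminal fluid and Y-linked genes were drawn up after values were seen. Members near 0 in mature libraries passed the count filter through the juvenile libraries alone and could only be called lower. Of 47 tested genes named for testis expression, 36 fell and 11 were not called, with a median log2 fold change of -3.10. The summed level of the testis-named genes was 32.5 to 42.7 CPM in mature libraries, and 211 and 167 CPM in juvenile ones. Of 29 seminal fluid genes tested, 20 fell and 2 rose, but their summed level was 435 to 673 CPM in mature libraries, and 422 and 384 CPM in juvenile ones. Ebp, an ejaculatory bulb protein gene, had 0, 0, 0.115, 0 and 0.0491 CPM in mature libraries and 26.5 and 53.4 CPM in juvenile ones (log2 fold change -9.80, adjusted p = 1.88e-06). Mst57Db, a male accessory gland gene, was at 0 counts in all mature libraries with 6.74 and 8.15 CPM in juvenile ones, which is at least 300-fold lower in mature males against a floor of 3 counts over the group. S-Lap2, a sperm leucyl aminopeptidase gene, had 0.657, 0.496, 0.749, 0.389 and 0.786 CPM in mature libraries and 14.5 and 10.2 CPM in juvenile ones. The seminal fluid members that rose were EbpIII (log2 fold change 1.21, adjusted p = 0.0014) and the esterase gene Est-6 (1.03, adjusted p = 0.00172). In mCherry libraries 2 of 43 testis-named genes were called lower on maturation and 2 higher. In the test of the difference between the genotypes edgeR called none of 61, and DESeq2 called 3 lower. By edgeR 9 had a lower fold change in the knockdown at an unadjusted p under 0.05. That count was 21 by limma-voom with sample weights and 5 without mature mCherry library 5, and the share of all genes was not counted. Whether RNA of the reproductive tract had a part in other genes called lower was not tested.

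Y-linked genes also stood higher in juvenile males. Of 12 tested, 6 fell and 6 were not called, with a median log2 fold change of -1.70, and 2 fell without juvenile library 1. The dynein heavy chain gene kl-3 had 4.93, 2.77, 4.38, 4.4 and 3.54 CPM in mature libraries and 17.5 and 13.7 CPM in juvenile ones (log2 fold change -1.96, adjusted p = 0.000221). Ppr-Y had 1199, 3365, 524, 1437 and 1368 CPM in mature libraries and 17265 and 6064 CPM in juvenile ones (log2 fold change -2.89, adjusted p = 0.0168), and its call was lost without juvenile library 1 (-1.93) or mature library 4 (-2.85). The juvenile libraries differed from each other here, with Y-linked sums of 1118 to 5928 CPM in mature libraries, and 25002 and 10355 CPM in juvenile ones.

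**Figure D4:**
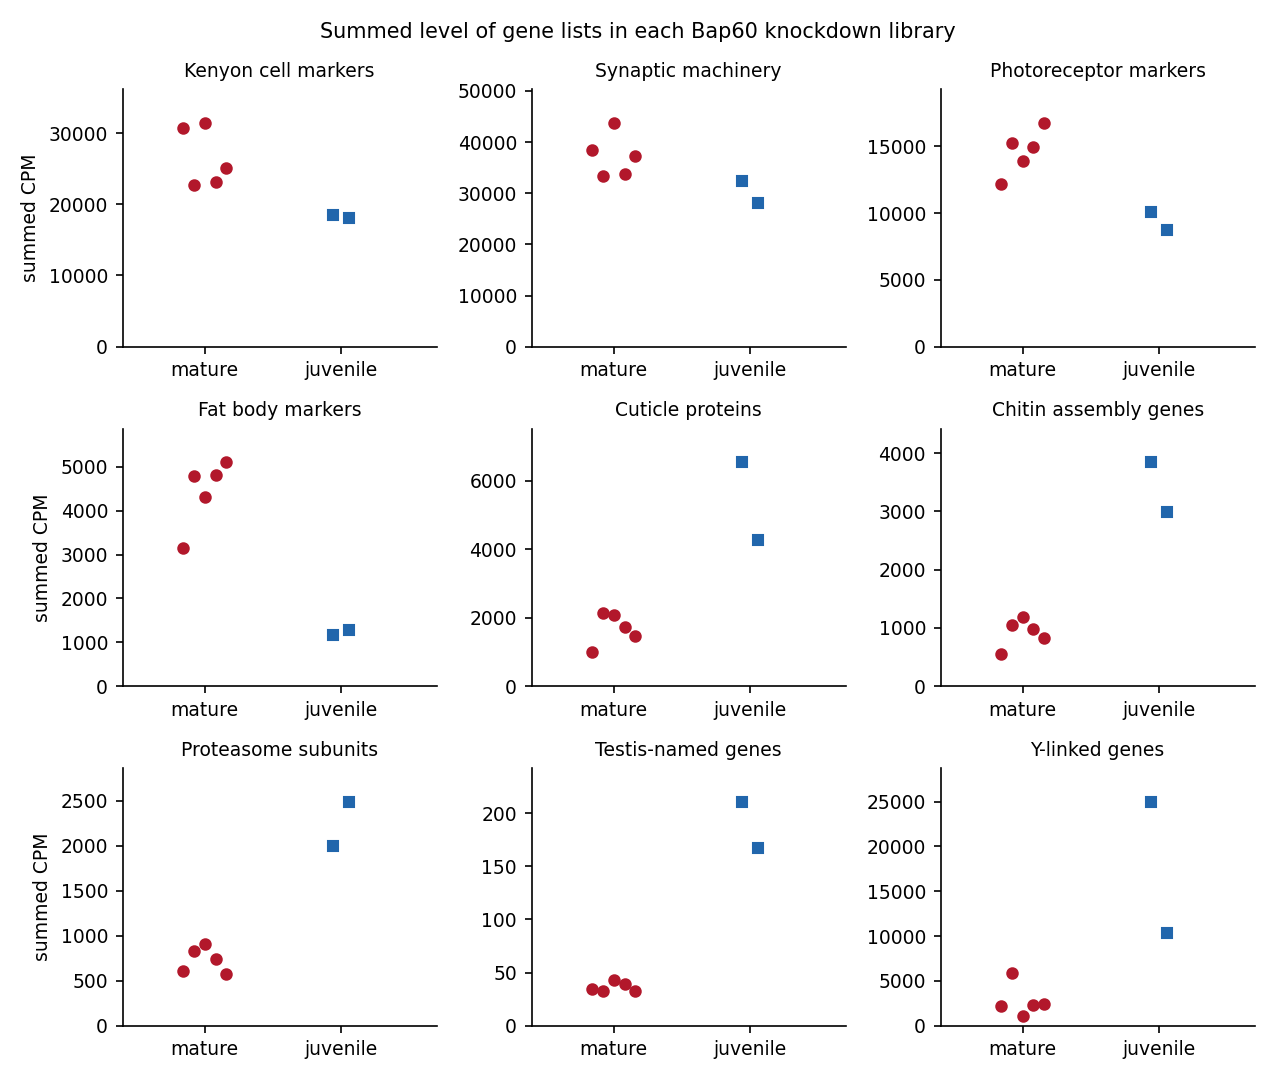
Summed CPM of 9 gene lists in each mature (left) and juvenile (right) knockdown library, on axes that start at 0. Kenyon cell, photoreceptor and fat body sums are higher in mature libraries, where most of the fat body sum is apolpp. Cuticle, chitin, proteasome, testis-named and Y-linked sums are higher in both juvenile libraries.

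Nearly all proteasome genes fell. The proteasome degrades ubiquitin-tagged proteins, and its list was drawn up after values were seen. Of 30 subunit genes tested, 28 fell in mature knockdown libraries, a share called of 93.3% against 42.0% of all genes, with a median log2 fold change of -1.59. Rpt2, an ATPase of the regulatory particle, had 27.4, 27.5, 25.3, 30 and 22.3 CPM in mature libraries and 94.4 and 135 CPM in juvenile ones (log2 fold change -2.12, SE 0.16, adjusted p = 1.66e-05). Prosbeta7, a core particle subunit, had 8.76, 12.3, 14.2, 11.5 and 11.3 CPM in mature libraries and 46 and 67.2 CPM in juvenile ones (log2 fold change -2.28, adjusted p = 3.79e-05). Rpn2, a scaffold subunit of the regulatory particle, had 73.5, 100, 101, 89.9 and 61.7 CPM in mature libraries and 241 and 271 CPM in juvenile ones. All 3 were separate between the ages. The members that were not called were Prosalpha5, at a log2 fold change of -0.46 (adjusted p = 0.174), and Rpt3, at -0.39 (adjusted p = 0.127). The summed level was 571 to 905 CPM in mature libraries, and 1992 and 2488 CPM in juvenile ones. The stress factor gene cnc, whose mammalian relatives Nrf1 and Nrf2 activate proteasome and antioxidant genes, had 306, 493, 455, 515 and 412 CPM in mature libraries and 879 and 1066 CPM in juvenile ones (log2 fold change -1.16, adjusted p = 0.000741). Reads of cnc cannot be told apart from those of genes it overlaps on both strands. In mCherry libraries 5 of the 30 subunits were called lower, and edgeR called none in the test of the difference between the genotypes, nor did DESeq2. In that test 15 of the 30 had a lower fold change in the knockdown at an unadjusted p under 0.05. That count was 1 by limma-voom with sample weights. With both juvenile knockdown libraries kept, it ran from 6 without juvenile mCherry library 3 to 23 without mature mCherry library 5. Without juvenile knockdown library 2 it fell below that range. The share of all genes at that p was not counted, so no difference is read from it. The median difference in log2 fold change was -0.93, against -0.03 over all genes tested.

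The control course of maturation was read from the mCherry libraries, which share no library with the knockdown. There 2283 of 10358 genes were called (22.0%), 1241 higher (12%) and 1042 lower (10.1%). Of the genes called in the knockdown, 1584 were also called in the same direction in mCherry, which is 35.8% of the knockdown calls and 69.4% of the mCherry calls. Only 16 genes were called in opposite directions. Among 4021 knockdown calls tested in both genotypes, 92% had the same sign in mCherry. The share of same sign over all 9957 genes tested in both was not counted. Over those genes the log2 fold changes of the genotypes had a Pearson correlation of 0.638. The mCherry comparison has another number of juvenile libraries, so its count of calls cannot be set against the knockdown count as a measure of how much changed.

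The difference between the genotypes was tested as an interaction over all 15 libraries. It was called for 186 of 11997 genes (1.55%), 153 with a higher maturation fold change in the knockdown (1.28%) and 33 with a lower one (0.275%). Upper-quartile scaling gave 64 higher and 38 lower, so the split between the directions depends on the scaling. Without single libraries the count ran from 91 without mature knockdown library 5 to 457 without juvenile mCherry library 1, and it was 108 without juvenile knockdown library 1, 111 without mature mCherry library 3 and 117 without mature mCherry library 5. limma-voom with sample weights called 7 genes.

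Most of the called difference lay in the juvenile libraries. Of 150 genes with a higher fold change in the knockdown and a level above 0 in all 4 groups, juvenile knockdown lay below juvenile mCherry in 149, and mature knockdown lay above mature mCherry in 115. The gap between the genotypes was larger in juvenile than in mature males for 147 of them. The median log2 ratio of knockdown over mCherry was -0.94 in juvenile males and 0.13 in mature males. For the 33 genes with a lower fold change in the knockdown, 21 had a level above 0 in all groups, and juvenile knockdown lay above juvenile mCherry in each of these 21. The rest of the 33 were low-level genes at 0 in all juvenile mCherry libraries, and the size of their fitted difference depends on the prior count. These counts describe genes chosen by the same test and carry no test of their own.

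The genes named next were called by the same test, so their arrangement follows from that choice and adds no support. Their levels are given in CPM scaled over all 15 libraries. Ggamma1, a G protein gamma subunit, had 838, 829, 929, 780 and 925 CPM in mature knockdown and 468 and 321 CPM in juvenile knockdown libraries. In mCherry it had 549, 630, 599, 660 and 686 CPM in mature and 706, 788 and 702 CPM in juvenile libraries. The juvenile knockdown libraries were thus the lowest and every mature knockdown library exceeded every mature mCherry library, with a difference in log2 fold change of 1.35 (SE 0.18, adjusted p = 0.00331). Vha36-1, a subunit of the vacuolar proton pump, had 44.8, 43.6, 40.5, 44.4 and 46.9 CPM in mature knockdown and 19.7 and 22.4 CPM in juvenile knockdown libraries. In mCherry it had 35, 37.8, 36.3, 38.4 and 38.7 CPM in mature and 48.7, 38.4 and 47.4 CPM in juvenile libraries. The difference in log2 fold change was 1.33 (SE 0.18, adjusted p = 0.00331). AstC, described above, averaged 46.1 ± 10 CPM in mature and 8.26 ± 0.564 CPM in juvenile knockdown, against 27.8 ± 8.38 CPM in mature and 20.7 ± 2.75 CPM in juvenile mCherry libraries (SD, n = 5, 2, 5 and 3). Its difference was 2.06 (SE 0.33, adjusted p = 0.00657). The replacement histone gene His4r averaged 109 ± 11.3 CPM in mature and 17.3 ± 1.52 CPM in juvenile knockdown, against 91.6 ± 14 CPM in mature and 43.3 ± 6.9 CPM in juvenile mCherry libraries, a difference of 1.58 (SE 0.22, adjusted p = 0.00331). These 4 calls held without any single library. With limma-voom and sample weights that of AstC was lost, and those of Ggamma1, Vha36-1 and His4r held.

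**Figure D5:**
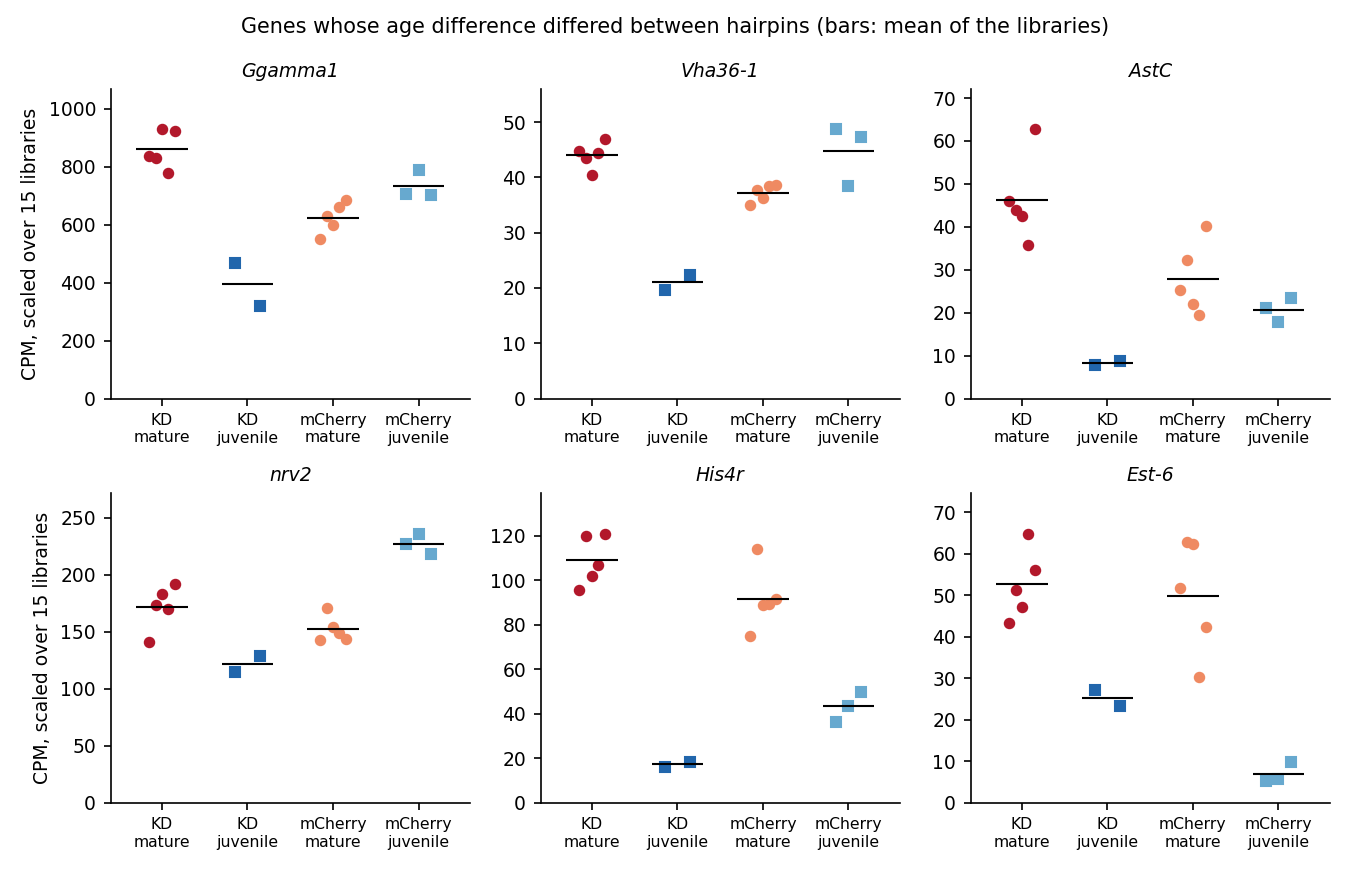
CPM of 6 genes in mature and juvenile Bap60 knockdown and in mature and juvenile mCherry libraries, with bars at the group means. Juvenile knockdown is lowest for Ggamma1, Vha36-1, AstC, nrv2 and His4r, and juvenile mCherry is lowest for Est-6.

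The sodium pump subunit gene nrv2 averaged 172 ± 19.4 CPM in mature and 122 ± 9.92 CPM in juvenile knockdown, against 152 ± 11.4 CPM in mature and 227 ± 9.29 CPM in juvenile mCherry libraries (difference 1.07, SE 0.17, adjusted p = 0.00657). Est-6 averaged 52.6 ± 8.32 CPM in mature and 25.3 ± 2.76 CPM in juvenile knockdown, against 50 ± 13.9 CPM in mature and 6.96 ± 2.51 CPM in juvenile mCherry libraries (difference -1.78, SE 0.35, adjusted p = 0.0176). The Est-6 call was lost without juvenile knockdown library 1 (-1.63). The mature libraries of the genotypes overlapped for nrv2 and for Est-6, and their juvenile libraries did not.

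By list, the difference was called for few members, and not only on neuronal lists. A higher maturation fold change in the knockdown was called for 3 of 28 photoreceptor markers. It was also called for 3 of 33 glutathione transferases and 3 of 69 mitochondrial ribosomal protein genes, against 1.28% of all genes. Other settings were not counted for these 3 lists. Of 25 vacuolar ATPase subunits tested, a list drawn up after values were seen, 7 had a higher maturation fold change in the knockdown. By limma-voom with sample weights that count was 2, and by DESeq2 it was 8. The count was 1 without juvenile knockdown library 1, and 3 without mature mCherry library 3, without mature knockdown library 5 or under upper-quartile scaling. Besides Vha36-1 these were Vha16-1, Vha68-1, VhaPPA1-1, VhaAC45, Vha55 and Vha14-1. Vha16-1, a proteolipid subunit of the membrane ring, averaged 2163 ± 132 CPM in mature and 1259 ± 183 CPM in juvenile knockdown, against 2033 ± 69.1 CPM in mature and 2438 ± 380 CPM in juvenile mCherry libraries (difference 1.04, SE 0.17, adjusted p = 0.00657). Of 37 synaptic machinery genes, 5 were called higher, Syt4 (1.02, adjusted p = 0.0105), Syngr, comt, Rop (0.86, adjusted p = 0.0208) and Csp. Those of comt, Csp, Rop and Syngr were lost without juvenile knockdown library 2 (0.63 to 1.03). That count was 1 without juvenile knockdown library 2, 3 without juvenile mCherry library 2, mature mCherry library 3 or 5 or mature knockdown library 5, and 9 without juvenile mCherry library 1. It was 2 under upper-quartile scaling, which ended the calls of comt, Csp and Rop, and 9 by DESeq2. By limma-voom with sample weights it was 0. That fit put 15 of the 37 higher at an unadjusted p under 0.05. The share of all genes at that p was not counted, so no difference is read from the 15. Of 37 neuropeptide genes, AstC, sNPF (1.39, adjusted p = 0.0164) and Ms (1.37, adjusted p = 0.0221) were called, and of 21 Kenyon cell markers, sNPF and jdp (1.32, adjusted p = 0.0227). On both lists limma-voom with sample weights called 0 members. DESeq2 called 5 neuropeptide genes higher and 1 lower, and 4 Kenyon cell markers higher. The calls of Vha16-1 and Vha68-1 were lost without juvenile knockdown library 1, and those of sNPF, Rop, Ms and jdp when either juvenile knockdown library was left out, at differences of 0.85 to 1.44 among these last 4. For jdp the call was also lost without juvenile mCherry library 2 (1.2), and jdp and Ms lost theirs under upper-quartile scaling. Mct1 was the other way round, with a difference of -1.24 (adjusted p = 0.0238), and its call was lost without juvenile knockdown library 2 (-1.07).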

How the data were processed

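The authors deposited raw read counts per gene, 1 file per library. Per the submitters' processing notes, STAR 2.5.3a and HTSeq 0.7.1 were used with BDGP6. RNA was isolated with a PicoPure kit and libraries were made with a Nugen Ovation kit, per the labels' protocols. The sources used here give no strand setting, annotation release or trimming. No-feature (1.17 to 2.76% in knockdown libraries) and ambiguous reads (7.21 to 7.66%) were left out. Total gene counts per library stand in the report and limit precision mainly for low genes. No pair of knockdown libraries agreed within sampling noise (lowest chi-square per degree of freedom 14.83).

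Of 17559 gene IDs, 17253 matched annotation release 115 on BDGP6.54, which gave names, positions and overlaps, and 306 did not. Of the 164 genes named, 58 overlap another gene, and their reads may be shared. The knockdown libraries were filtered (filterByExpr, minimum count 10, total 15), TMM-scaled and tested with edgeR 4.0.16 (robust quasi-likelihood F-test, Benjamini-Hochberg adjusted p under 0.05), in R 4.3.3. The 8 mCherry libraries were fitted alone in the same way, and the difference as an interaction over 15 libraries. Levels are CPM, and a floor of 3 counts was used for groups at 0. DESeq2 1.42.0 and limma 3.58.1 were alternatives, with other scalings, filters, thresholds, thinning and left-out libraries. The procedure was tested on simulated data. Tables and figures were made with Python 3.11.15.

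Members and lists were chosen with earlier results of these data known, and 10 lists were added to 34 after values were seen. Named genes are Bap60, the 12 largest and 12 smallest changes among called genes of at least 5 CPM in 1 group and 3 each of any name, per list up to 5 called genes by adjusted p plus the 2 of highest level, and 8 per direction of the difference. From these the text takes a part, and genes beyond them were chosen after their values were seen. Libraries of the same replicate number showed no shared deviation (correlations -0.0223 and -0.0206), but with 2 juvenile libraries this cannot exclude a pairing. A planned motif description of promoters was not run.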

Additional observations from a re-analysis of the deposited data

Results flagged for a closer look

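Among the 164 named genes, 14 had a mature knockdown library far from the other 4 in CPM. Chance alone flags about 1 in 20 groups. Mature library 1 was apart for prt (194), high in its group, and for rdgA (362), Gs2 (364), msi (199), loco (24.6) and mt:ND2 (17.1). Mature library 4 was the highest for Jheh1 (18.3), Ubx (8.03), COX6AL2 (0.561), Obp56c (0.259) and COX6CL (0.13). Mature library 3 was apart for ATPsynGL (0.0576) and bcd (0.0288), both at a few counts, and mature library 5 was the highest for Ms (37.2).

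For 26 named genes the maturation log2 fold change in the knockdown differed from that in mCherry by edgeR's interaction test at an adjusted p under 0.05. Differences were positive for the signalling, peptide and chromatin genes AstC (2.06), His4r (1.58), sNPF (1.39), Ms (1.37), Ggamma1 (1.35) and jdp (1.32). They were positive for Task7 (1.57), nrv2 (1.07) and stau (0.63), and for the vesicle genes Syngr (1.2), Syt4 (1.02), comt (0.89), Rop (0.86) and Csp (0.69). Among proton pump subunits they were 1.33 for Vha36-1, 1.04 for Vha16-1, 0.98 for Vha68-1, 0.97 for Vha14-1, 0.85 for VhaPPA1-1, 0.72 for VhaAC45 and 0.70 for Vha55. Negative differences were seen for Est-6 (-1.78), Mct1 (-1.24), Lsd-1 (-1.18), Hr4 (-1.12) and PPO2 (-0.92). Of the 26 calls, 6 held without each single library, those of AstC, His4r, Ggamma1, Vha36-1, Syt4 and nrv2, and 20 were lost without at least 1. The calls of Hr4 (-1.10 and -1.10) and PPO2 (-0.97 and -0.83) were lost without juvenile knockdown library 1 or 2. That of Lsd-1 was lost without juvenile knockdown library 2 (-0.98). Each of these 3 was also lost without several other libraries, at -1.13 to -1.07 for Hr4, -0.94 to -0.88 for PPO2 and -1.17 to -1.07 for Lsd-1.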

How the results depend on the processing

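Of the 4428 genes called between the ages in the knockdown, an adjusted p under 0.01 left 2592 (1142 higher, 1450 lower). Restricting the test to genes averaging 10 CPM or more, an alternative chosen after seeing the data, gave 2447 (1162 higher, 1285 lower) from fewer genes. limma-voom with one weight per age called 1359 higher. Leaving out single libraries gave 3557 to 4328 calls, 1650 to 2073 higher and 1907 to 2462 lower. DESeq2, other scalings and filters, sample weights, thinning, all 15 libraries in the fit and a 1.2-fold threshold stayed within 1.5 times. Whether the replicate numbers pair the libraries cannot be told with 2 juvenile ones. A replicate block leaves little to measure spread by, because only numbers 1 and 2 occur at both ages. With the replicate block 766 genes were called, 321 higher and 445 lower, and Bap60 had 0.96, not called. Bap60 also lost its call under DESeq2 and RLE scaling (0.72 each), upper-quartile scaling and one weight per age (0.73 each), no filter (0.76), sample weights, the 1.2-fold threshold and the 0.01 threshold (0.78 each), the stricter filter (0.68) and thinning (0.67), and ranged from 0.52 to 1.08 without single libraries.

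For the 186 genes whose maturation differed between the genotypes (153 higher, 33 lower), DESeq2 called 550 (349 and 201), upper-quartile scaling 102 (64 and 38) and sample weights 7 (7 and 0). The replicate block called 84 (64 and 20). Without single libraries the count was 91 to 457, with 82 to 227 higher and 9 to 230 lower. The share called higher was 82.3% as reported, 62.7% under upper-quartile scaling and 63.5% by DESeq2. The all-gene median of the difference was -0.14 with upper quartiles and -0.03 with TMM. The cause of these shifts was not tested. Of 151 named maturation calls, DESeq2 kept 149, sample weights 137 and the replicate block 76, and none changed sign in any alternative. Of 26 named calls of the difference, DESeq2 kept 26, upper-quartile scaling 16, sample weights 4 and the replicate block 16. The 4 kept with sample weights were Ggamma1, His4r, Vha36-1 and Vha16-1.

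With 2 juvenile knockdown libraries that differ from each other, juvenile levels limit each comparison, and leaving out either one leaves a single juvenile library that is assumed to vary like the mature ones. Low genes at a few counts are the least precise.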

Other observations

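Glial markers were called in both directions, with 5 of 15 tested higher and 3 lower in mature knockdown libraries, and the count called higher was 1 without juvenile library 1 or mature library 5, 2 without mature library 4 and 3 without mature library 2. The glial gene loco, which encodes a regulator of G protein signalling, had 24.6, 41, 38.5, 42.5 and 39.6 CPM in mature libraries and 97.8 and 79.5 CPM in juvenile ones (log2 fold change -1.25, edgeR adjusted p = 0.00077). The glutamine synthetase gene Gs2 fell by 0.81 on the log2 scale, and wrapper, an immunoglobulin-domain gene of cortex and midline glia, rose by 1.33. Summed glial markers came to 1112 to 1620 CPM in mature libraries, and 1931 and 1758 CPM in juvenile ones, and their part in the results was not tested. Of 11 haemocyte markers tested, 1 rose, 3 fell and 7 were not called, a share called of 36.4% against 42.0% of all genes, and 2 rose without juvenile library 2. Among those called, lz, a Runx factor of crystal cells, fell by 1.60 and PPO2, a crystal cell prophenoloxidase, by 1.10 on the log2 scale, and the collagen gene Col4a1 rose by 0.95. The summed haemocyte level was 874 to 1036 CPM in mature libraries, and 699 and 837 CPM in juvenile ones.

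Of 35 RNA-binding regulator genes tested, 7 rose and 2 fell, a share of 25.7% against 42.0% of all genes. The count called lower was 5 without mature library 3, 4 without mature library 1, 4 under RLE or upper-quartile scaling and 6 by DESeq2. The ELAV-family gene Rbp9 had 648, 784, 774, 719 and 816 CPM in mature libraries and 350 and 269 CPM in juvenile ones (log2 fold change 1.27, adjusted p = 0.000179). The related fne rose by 0.95, and msi, a gene known from neural progenitors, fell by 1.11. Of 25 clock genes tested, 5 rose and 4 fell, and 2 fell without juvenile library 1. The photoreceptor protein gene cry had 45.4, 45, 34.8, 60.1 and 54 CPM in mature libraries and 13.9 and 18.3 CPM in juvenile ones (log2 fold change 1.57, adjusted p = 0.000559). The clock repressor gene vri had 61.9, 75.9, 52.9, 68.3 and 57.1 CPM in mature libraries and 136 and 117 CPM in juvenile ones (adjusted p = 0.000692). Both genes were separate between the ages, and the labels used here give no time of day for the libraries.

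Gene classes differed in how often they were called, and these counts carry no test. Of 474 non-coding RNA genes, 5.91% were called higher and 28.9% lower. Of 1580 genes on X, 25.9% were higher and 16% lower. Among the 2584 genes with introns of 2712 bases or more in all, 13.4% were higher and 34.9% lower. Among the 2636 genes with the lowest levels, 4.32% were higher and 32.1% lower. Level and these classes were not separated from each other. A run of 10 neighbouring genes called lower, from modSP to CG18622 at 3R 16652446 to 16987732 (BDGP6.54), spans the bithorax complex and had a median log2 fold change of -4.89.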
